A study of Mus musculus with 40 samples.

Results

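Cholesterol synthesis in the liver was followed through 7 genes: Srebf2, which encodes the transcription factor SREBP2, and its known target enzymes Hmgcs1, Idi1, Fdps, Sqle, Lss and Cyp51. The genes were taken by symbol and not by a cut-off on their values. Earlier results of these data were known when the genes were chosen. The genes were read in whole-liver RNA-Seq of mice that lacked Nampt in hepatocytes (HNKO) and of their WT littermates. They are 7 of the 55487 genes in the count table, and all 7 were among the 20297 genes that had enough counts to be tested. Levels are given as log2 CPM, counts scaled to the size of the library on a log2 scale, where a step of 1 is a doubling.

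All mice were female, on the strain background C57BL/6JBomTac, and were examined at day 3, 6, 12 or 21 of feeding with a purified diet (PD). These days stand as an age in the labels, whereas the study's methods give them as the time that adult mice spent on the diet, and they are called days on PD here. Both genotypes carried Nampt fl/fl, and only HNKO mice carried Alb-Cre+/-, in which the albumin promoter drives Cre. The study describes the knockout as specific to hepatocytes, and these whole-liver libraries do not measure Nampt in single cell types. The WT groups had 5, 4, 5 and 5 mice at days 3, 6, 12 and 21, and the HNKO groups had 5, 5, 6 and 3. HNKO libraries 17 and 18 of day 21 were described as having failed quality control and were left out, which left 38 of 40 libraries. Each library is a separate mouse as far as the labels tell, and libraries are named by the number in their title.

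SREBP2 is made as a precursor in the membrane of the endoplasmic reticulum, where it is bound to the sterol sensor SCAP. When membrane cholesterol is low, SCAP carries the precursor to the Golgi, proteases release its transcription factor part, and this part binds sterol regulatory elements next to CCAAT boxes, which are bound by NF-Y. When sterols are plentiful, INSIG proteins hold SCAP back. The genes for cholesterol synthesis and uptake thus move together, up when sterols are low and down when sterols are plentiful. The liver is a main site of cholesterol synthesis, and in rodents its transcripts for this pathway are known to follow feeding and the time of day.

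The promoters of 5 of the 7 genes were found in a RefSeq table for GRCm38.p6, and Sqle and Fdps were not matched. The stretches below are printed 5′ to 3′ on the strand of the gene because they hold the CCAAT boxes that the 5 genes share. Capitals mark each box, which reads ATTGG where it lies on the opposite strand, and in Hmgcs1 also the sterol regulatory element TCACNCCAC. For Idi1 and Cyp51, where the boxes lie downstream of the start in the annotation used for counting, short stretches around each box are shown.
Srebf2, chr15:82147019-82147180, plus strand: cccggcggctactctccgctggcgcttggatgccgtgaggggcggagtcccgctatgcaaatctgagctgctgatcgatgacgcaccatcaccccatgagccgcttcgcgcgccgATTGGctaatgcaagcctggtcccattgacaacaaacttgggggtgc
Hmgcs1, chr13:119690101-119690350, plus strand: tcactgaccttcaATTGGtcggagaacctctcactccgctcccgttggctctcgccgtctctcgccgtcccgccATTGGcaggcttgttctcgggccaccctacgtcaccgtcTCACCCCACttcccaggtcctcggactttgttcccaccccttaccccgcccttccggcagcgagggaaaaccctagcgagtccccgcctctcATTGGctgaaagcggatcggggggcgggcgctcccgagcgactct
Idi1, chr13:8885549-8885577, plus strand: tgcctccagctgATTGGcgagcccgggca
Idi1, chr13:8885577-8885605, plus strand: atggtccaaggtgccATTGGctggcgacc
Lss, chr10:76531355-76531587, plus strand: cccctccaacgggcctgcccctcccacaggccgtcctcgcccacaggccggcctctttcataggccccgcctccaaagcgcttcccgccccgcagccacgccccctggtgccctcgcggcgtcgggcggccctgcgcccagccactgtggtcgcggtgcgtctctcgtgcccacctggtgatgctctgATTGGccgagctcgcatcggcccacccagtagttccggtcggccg
Cyp51, chr5:4104710-4104738, minus strand: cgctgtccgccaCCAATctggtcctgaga

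A CCAAT box on either strand was found in the 250 bases before the start of all 5 promoters, whereas 33.8% of the 32851 promoters in the table held it. Hmgcs1 held 3 of them, and Idi1 held 2. The element TCACNCCAC was found in Hmgcs1 alone among the 5, and in 1.05% of all promoters. A form of this element that is longer by a base was found in 0 of the 5 and in 0.0731% of all promoters. These motifs were chosen after the sequences had been seen, and a match describes the letters in the window, not binding.

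Total counts ranged from 16151037 to 64181492 per library (median 26466478.5). Nampt was lower in HNKO than in WT by log2 fold changes of -0.93, -0.90 and -0.82 at days 3, 6 and 12 (adjusted p 0.0193, 0.0128 and 0.0208). At day 21 its log2 fold change was -0.69 (adjusted p 0.161), and the mean over the 4 days was -0.83 (SE 0.12, adjusted p 2.61e-06). The summed level of 6 hepatocyte markers had a lower median in HNKO, 78978.9 CPM against 106914 CPM in WT. The ranges overlapped, from 48188.3 to 106928 CPM in HNKO and from 75168.6 to 131064 CPM in WT. Of these markers, Alb was called lower for the mean over the 4 days (-0.46, adjusted p 0.000157), where 17.3% of all genes were called lower. Cps1, Ass1, Hnf4a, Fbp1 and Tat were not called. The sum of 5 cholangiocyte markers was higher, from 105 to 751 CPM in HNKO against 34.02 to 48.6 CPM in WT. No marker was at 0 in any library. In whole-liver RNA, fewer hepatocytes and less RNA per hepatocyte cannot be told apart.

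Per kilobase of exon, Hmgcs1, the enzyme that joins acetoacetyl-CoA and acetyl-CoA, was the most abundant of the 7 transcripts in WT liver, with a median of 82.7 CPM per kb (26.8 to 136, n = 19 mice). Cyp51, which removes a methyl group from lanosterol, had a median of 32.8 CPM per kb (12.7 to 48.5). Sqle, the squalene epoxidase, had a median of 12.1 CPM per kb (3.97 to 25.9), and Fdps, which makes farnesyl diphosphate, had a median of 11.1 CPM per kb (2.41 to 27.3). Lss, which closes the sterol ring, followed with a median of 6.69 CPM per kb, Srebf2 with 6.04 CPM per kb and Idi1, which isomerises isopentenyl diphosphate, with 4.19 CPM per kb. The ranges of neighbours in this order overlapped for every pair, and Fdps (15.9 CPM per kb) passed Sqle (14.96 CPM per kb) when the length of the longest transcript was used.

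Some counts may be shared with other genes. Of the 51-base stretches in the transcripts, 26.1% in Fdps, 25.2% in Idi1 and 11.5% in Hmgcs1 also occurred in another annotated gene, mainly the gene models Gm43738, Gm13502 and Gm48342, so the levels of these 3 genes depend on how such reads were assigned. Cyp51 (chr5:4081145-4104746, minus strand) overlaps Akap9 on the opposite strand. The libraries were stranded, but the use of strand in counting was not given in the sources used here, and 2.7% of the 51-base stretches of Cyp51 occurred on either strand in other genes, Akap9 among them.

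**Figure D1:**
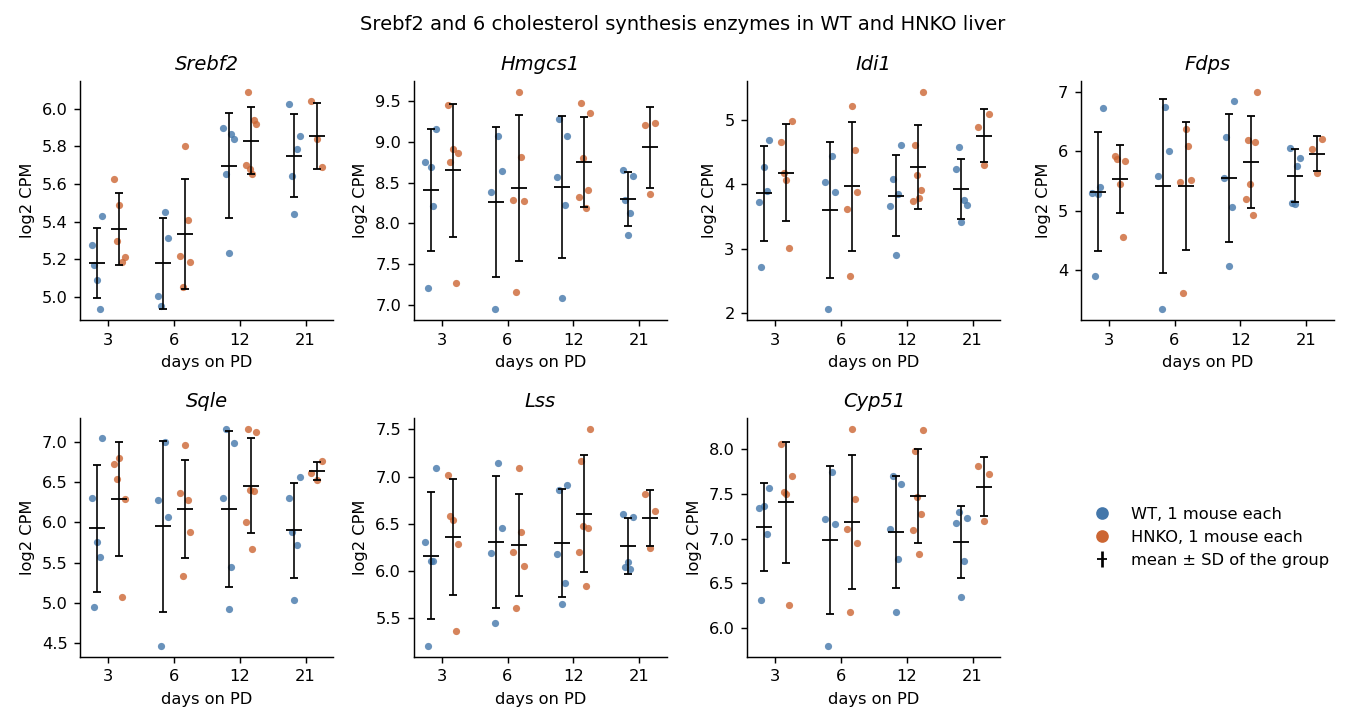
Level of each of the 7 genes (log2 CPM) in each library, by days on PD, with WT and HNKO side by side, 1 point per mouse and the group mean ± SD. The groups overlap for each gene at each day, and Srebf2 sits higher at days 12 and 21 than at days 3 and 6.

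Whether loss of Nampt changed this pathway was asked by comparing HNKO with WT at each day. No member of the 7 passed the test at day 3, 6, 12 or 21, where 4.66%, 12.8%, 7.82% and 3.12% of all genes tested were called by edgeR's quasi-likelihood test with Benjamini-Hochberg adjustment. At an unadjusted p under 0.05, the count among the 7 was also 0 at each day, against 4235, 5405, 4965 and 3655 of all genes, and DESeq2 called 0 of the 7 at each day. Log2 fold changes of the 7 were above 0 for 7, 5, 7 and 7 genes, with medians of 0.26, 0.17, 0.22 and 0.60, whereas the medians over all genes tested were 0.01, -0.01, 0.00 and -0.01. The direction of the 7 is not 7 separate observations, since the enzymes moved together between mice, as described below.

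Srebf2 (chr15:82147181-82205379, plus strand, GRCm38) had overlapping levels in both genotypes at each day. At day 3 it was 4.93, 5.09, 5.17, 5.28 and 5.43 log2 CPM in WT and 5.18, 5.21, 5.30, 5.49 and 5.63 in HNKO. At day 6 it was 4.95, 5.004, 5.31 and 5.45 in WT and 5.05, 5.18, 5.22, 5.41 and 5.80 in HNKO. All 5 HNKO mice of day 3 lay above the WT median, and the ranges overlapped at both days. At day 12 the lowest, median and highest HNKO levels were 5.65, 5.81 and 6.09, against 5.23, 5.65, 5.84, 5.87 and 5.90 in WT. At day 21 the HNKO levels were 5.69, 5.84 and 6.04, against 5.44, 5.65, 5.79, 5.86 and 6.03 in WT. The log2 fold changes were 0.18, 0.17, 0.12 and 0.10 at the 4 days, with SEs from 0.13 to 0.16 and adjusted p from 0.482 to 0.807, and none was called in this fit.

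Hmgcs1, the first of the enzymes in the order of the pathway (chr13:119690379-119708260, plus strand), had a wide spread within each group. At day 3 the levels were 7.21, 8.21, 8.69, 8.76 and 9.17 log2 CPM in WT and 7.27, 8.76, 8.87, 8.92 and 9.45 in HNKO. At day 21 they were 7.85, 8.12, 8.29, 8.58 and 8.65 in WT and 8.36, 9.21 and 9.23 in HNKO. At day 21, HNKO libraries 37 and 40 were above every WT library, and library 38 lay within the WT range. The log2 fold change was 0.26 at day 3 (SE 0.41) and 0.66 at day 21 (SE 0.47, adjusted p 0.498), with a 95% confidence interval of -0.30 to 1.61 at day 21.

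Idi1 (chr13:8885501-8892451, plus strand) had the highest log2 fold change of the 7 at each day. At day 6 its levels were 2.06, 3.88, 4.03 and 4.44 log2 CPM in WT and 2.57, 3.62, 3.88, 4.53 and 5.22 in HNKO. At day 12 the lowest, median and highest HNKO levels were 3.74, 4.03 and 5.43, against 2.90, 3.67, 3.84, 4.09 and 4.61 in WT. At day 21 they were 3.42, 3.68, 3.76, 4.24 and 4.57 in WT and 4.29, 4.88 and 5.08 in HNKO. Here too HNKO libraries 37 and 40 were above all WT libraries of day 21, while library 38 was not. The log2 fold changes were 0.32, 0.40, 0.48 and 0.80 at the 4 days (SE 0.43, 0.45, 0.41 and 0.48), with adjusted p from 0.394 to 0.715. The value at day 12 was 0.14 without HNKO library 36 and 0.72 without WT library 34, and that at day 3 was 0.11 without HNKO library 23.

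Fdps (chr3:89093588-89101959, minus strand) spread most between mice. In WT at day 6 it was 3.34, 5.59, 6.01 and 6.76 log2 CPM, a 10.7-fold range among 4 mice of the same genotype and day. In HNKO at day 6 it was 3.62, 5.49, 5.51, 6.09 and 6.37. The groups lay on top of each other, and the log2 fold change was -0.18 (SE 0.53). At day 21 Fdps was 5.12, 5.13, 5.76, 5.89 and 6.06 in WT and 5.64, 6.04 and 6.21 in HNKO, and the groups differed by a log2 fold change of 0.34 (SE 0.57).

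Sqle (chr15:59315077-59331192, plus strand) was 5.03, 5.72, 5.89, 6.31 and 6.56 log2 CPM in WT and 6.53, 6.62 and 6.77 in HNKO at day 21, so that HNKO library 38 lay just below the highest WT mouse. Its log2 fold change there was 0.65 (SE 0.48, adjusted p 0.51), and those of days 3, 6 and 12 were 0.29, 0.06 and 0.16. Lss (chr10:76531588-76557138, plus strand) was 6.02, 6.04, 6.10, 6.57 and 6.60 in WT and 6.24, 6.63 and 6.81 in HNKO at day 21 (log2 fold change 0.29, SE 0.39). Cyp51 was 6.35, 6.75, 7.18, 7.23 and 7.29 in WT and 7.20, 7.72 and 7.81 in HNKO at day 21 (log2 fold change 0.60, SE 0.39, adjusted p 0.447). For these 3 enzymes too, the HNKO mice of day 21 lay above the WT median and overlapped with the WT range. At days 3, 6 and 12 the mean log2 CPM of Lss in HNKO minus WT was 0.20, -0.03 and 0.32. For Cyp51 these differences were 0.27, 0.20 and 0.40.

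All 28 pairs of groups, for 7 genes at 4 days, overlapped. Among all genes tested, 4.11%, 12.8%, 4.79% and 13.9% did not overlap between HNKO and WT at days 3, 6, 12 and 21. At day 21, the 3 HNKO mice were all above the WT median for Hmgcs1, Idi1, Sqle, Lss and Cyp51, and 2 of the 3 were above it for Srebf2 and Fdps. The exact two-sided permutation test of the mean log2 CPM at day 21 gave p = 0.0536 for Idi1, 0.0714 for Sqle, 0.0893 for Hmgcs1 and 0.125 for Cyp51, unadjusted over the 28 tests run, where 3 against 5 mice can give no p below 0.0179. At the other 3 days the lowest exact p was 0.159, for Srebf2 at day 3. The fold changes of the count model can differ from these means of log2 values, as for Fdps at day 3, where the model gave 0.01 and the means differed by 0.20.

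**Figure D2:**
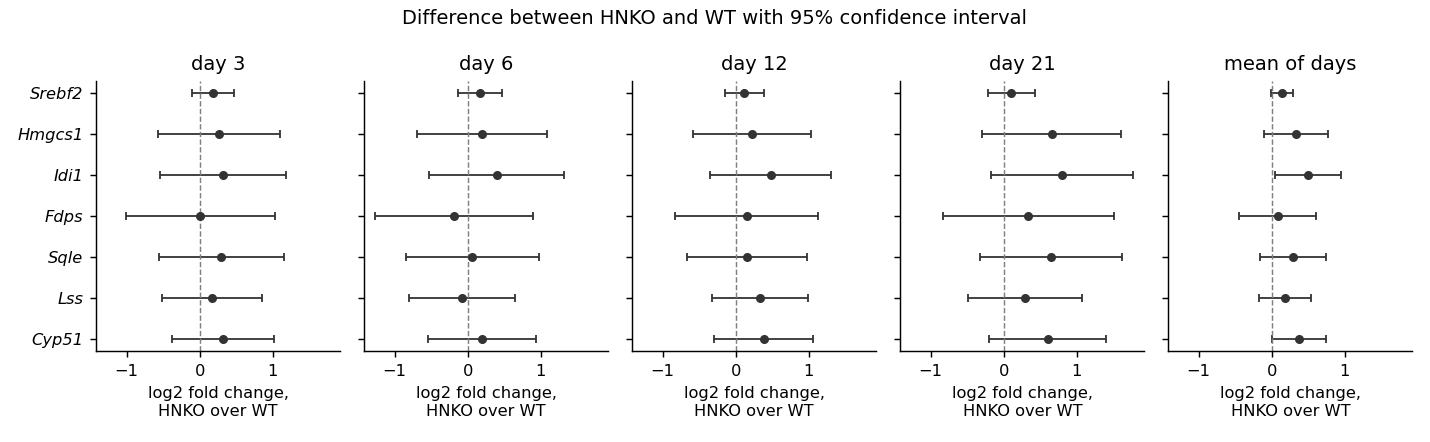
Log2 fold change of HNKO over WT for each of the 7 genes at each day and for the mean over the 4 days, with its 95% confidence interval. The intervals of the single days span 0 for each gene, and those of Idi1 and Cyp51 for the mean over the days start at 0.05 and 0.01.

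Averaged over the 4 days, 0 of the 7 genes were called, against 36.4% of all genes tested (19.2% higher and 17.3% lower). At an unadjusted p under 0.05, 2 of the 7 were found, Idi1 and Cyp51, against 9090 of the 20297 genes tested. For Idi1 the log2 fold change was 0.50 (SE 0.22, 95% confidence interval 0.05 to 0.95, adjusted p 0.0744), and for Cyp51 it was 0.38 (SE 0.18, 0.01 to 0.74, adjusted p 0.102). Hmgcs1 followed with 0.33 (SE 0.22, adjusted p 0.238), Sqle with 0.29 (SE 0.22, adjusted p 0.32), Lss with 0.18 (SE 0.18, adjusted p 0.453), Srebf2 with 0.14 (SE 0.07, adjusted p 0.123) and Fdps with 0.08 (SE 0.26, adjusted p 0.848). The median of the 7 was 0.29, and that of all genes was -0.01. Idi1 was called when HNKO library 7 (0.56, adjusted p 0.037), HNKO library 22 (0.55, adjusted p 0.0434), WT library 26 (0.56, adjusted p 0.046), WT library 27 (0.57, adjusted p 0.0477) or WT library 34 (0.56, adjusted p 0.0471) was left out.

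Whether the genotype effect differed between days was tested as an interaction, which called 0 genes of the 20297 (966 at an unadjusted p under 0.05, and 12 genes with DESeq2). For the 7 genes the unadjusted interaction p ranged from 0.818 to 0.977. The higher fold changes of Hmgcs1, Idi1, Fdps, Sqle and Cyp51 at day 21 than at the earlier days were therefore not distinguished from those days.

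Libraries numbered 1 to 21 and 22 to 41 in their titles held mice of both genotypes at days 3, 6 and 12, and the comparison was repeated within each range of numbers. At day 3 the difference in mean log2 CPM turned with the range. HNKO exceeded WT in the first range by 0.86 (Cyp51) to 1.15 (Fdps) for the enzymes, and in the second range the differences ran from -0.62 (Hmgcs1) to -0.28 (Idi1). Over the 7 comparisons that could be made, HNKO was higher in 6 for Srebf2, Hmgcs1, Idi1 and Cyp51 and in 5 for Sqle, Fdps and Lss. At day 21 the passing HNKO libraries were all of the second range, so no comparison within the first was available. The excluded HNKO libraries 17 and 18 of the first range had Idi1 at 2.49 and 4.47 log2 CPM and Hmgcs1 at 7.49 and 8.60, and with both in the fit the day 21 fold changes of Idi1 and Hmgcs1 were lower, as given in the closing section.

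The course over days was asked in WT mice alone. Srebf2 was the only gene of the 7 called for any change across days (adjusted p 0.00409, 1 of 7, against 5.84% of all genes tested). From day 3 to day 21 its mean rose from 5.18 to 5.75 log2 CPM. This step was 0.57 in log2 fold change (SE 0.14, adjusted p 0.0113), in a comparison with 4.95% of all genes called. All 5 WT mice of day 21 (5.44 to 6.03) were above all 5 of day 3 (4.93 to 5.43), which was seen for 7.19% of genes tested. The call held when each library of the 2 groups was left out in turn, with adjusted p from 0.00574 to 0.0463.

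Srebf2 did not move evenly. Its log2 fold change was 0.00 from day 3 to day 6 (SE 0.15), 0.53 from day 6 to day 12 (SE 0.15, adjusted p 0.0506) and 0.04 from day 12 to day 21 (SE 0.14, adjusted p 0.929). The step from day 6 to day 12 missed the threshold, in a comparison where 2.24% of all genes were called. It passed in 7 of 10 alternative fits, and when WT library 16 (0.63, adjusted p 0.00928) or WT library 27 (0.62, adjusted p 0.0372) was left out. WT library 16, at 5.23, was the only mouse of day 12 within the range of days 3 and 6. In HNKO, levels ran from 5.18 to 5.63 at day 3 and from 5.69 to 6.04 at day 21, and these 2 groups were not compared in a test of their own.

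None of the 6 enzymes was called across days in WT, and whether their course differed from that of Srebf2 was not tested. Between day 3 and day 21 in WT their log2 fold changes ran from -0.21 (Hmgcs1) to 0.05 (Fdps), with SEs from 0.34 to 0.50 and adjusted p from 0.812 to 0.999, and 0 of 6 were called. The 95% confidence interval was -1.05 to 0.62 for Hmgcs1 and -0.97 to 1.07 for Fdps, and the 0.57 of Srebf2 lay within the intervals of 5 enzymes and above that of Cyp51, which ended at 0.51. The median log2 fold change of the 6 enzymes was 0.02 from day 3 to day 6, 0.07 from day 6 to day 12 and -0.19 from day 12 to day 21. None of the 6 was called in these steps, where 0%, 2.24% and 0.00493% of all genes were called. For day 6 against day 3, 1063 genes had an unadjusted p under 0.05 and DESeq2 called 5 genes.

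Enzyme levels varied widely between mice of the same group. The pooled standard deviation within groups was 0.91 log2 units for Fdps, 0.74 for Idi1, Sqle and Hmgcs1, 0.60 for Cyp51 and 0.57 for Lss, against a median of 0.32 over all genes tested. Among genes within 1 log2 unit of the same mean level, 96.4% to 99.5% had a smaller spread than these enzymes. Srebf2 had a standard deviation of 0.23, and 75.5% of genes near its own level had a smaller one.

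The enzymes rose and fell together from mouse to mouse. Across the 38 libraries, with each value taken relative to its group mean, Pearson's r between pairs of enzymes was 0.80 to 0.97 (median 0.90, 15 pairs), and r of Srebf2 with each enzyme was 0.58 to 0.71. These values share libraries and depth and are given as a description. In 6 of the 8 groups a single library was lowest in all 6 enzymes, namely WT libraries 5, 10 and 16 at days 3, 6 and 12 and HNKO libraries 22, 7 and 38 at days 3, 6 and 21. In the other 2 groups, WT library 21 and HNKO library 32 were lowest in 5 of the 6. WT libraries 26 and 27 and HNKO library 29 were highest in all 6 enzymes of their groups.

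The clock genes also varied between mice of the same group. A clock score was formed for each library as the mean log2 CPM of Dbp, Nr1d1, Nr1d2, Tef, Hlf, Per1, Per2 and Per3 minus that of Arntl, Npas2 and Clock, transcripts that are known to peak at about opposite times of day. WT libraries 5, 10 and 16, lowest in the enzymes, had scores of 2.65, 5.23 and 5.37, each the highest of its group. WT libraries 26 and 27, highest in the enzymes, had scores of 0.31 and -0.13, each the lowest of its group. In HNKO, libraries 22, 7 and 32, which were lowest in at least 5 of the 6 enzymes at days 3, 6 and 12, had scores of 1.36, 4.10 and 4.44, each the highest of its group. The HNKO mice of day 21 did not follow this order, since library 38, lowest in all 6 enzymes, had a score of 3.78, and library 40, with the highest mean of the enzymes, had the highest score of 4.16. Over the 38 libraries, with group means removed, r of the score was -0.75 with the mean of the 6 enzymes (-0.79 in WT and -0.68 in HNKO, n = 19 each) and -0.77 with Srebf2. The time of day and the feeding state at which these mice were killed were not stated for this experiment. For another feeding experiment, the study's methods give a fast before killing that began at a set time of day. The part of time of day or feeding state in the result was not tested.

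**Figure D3:**
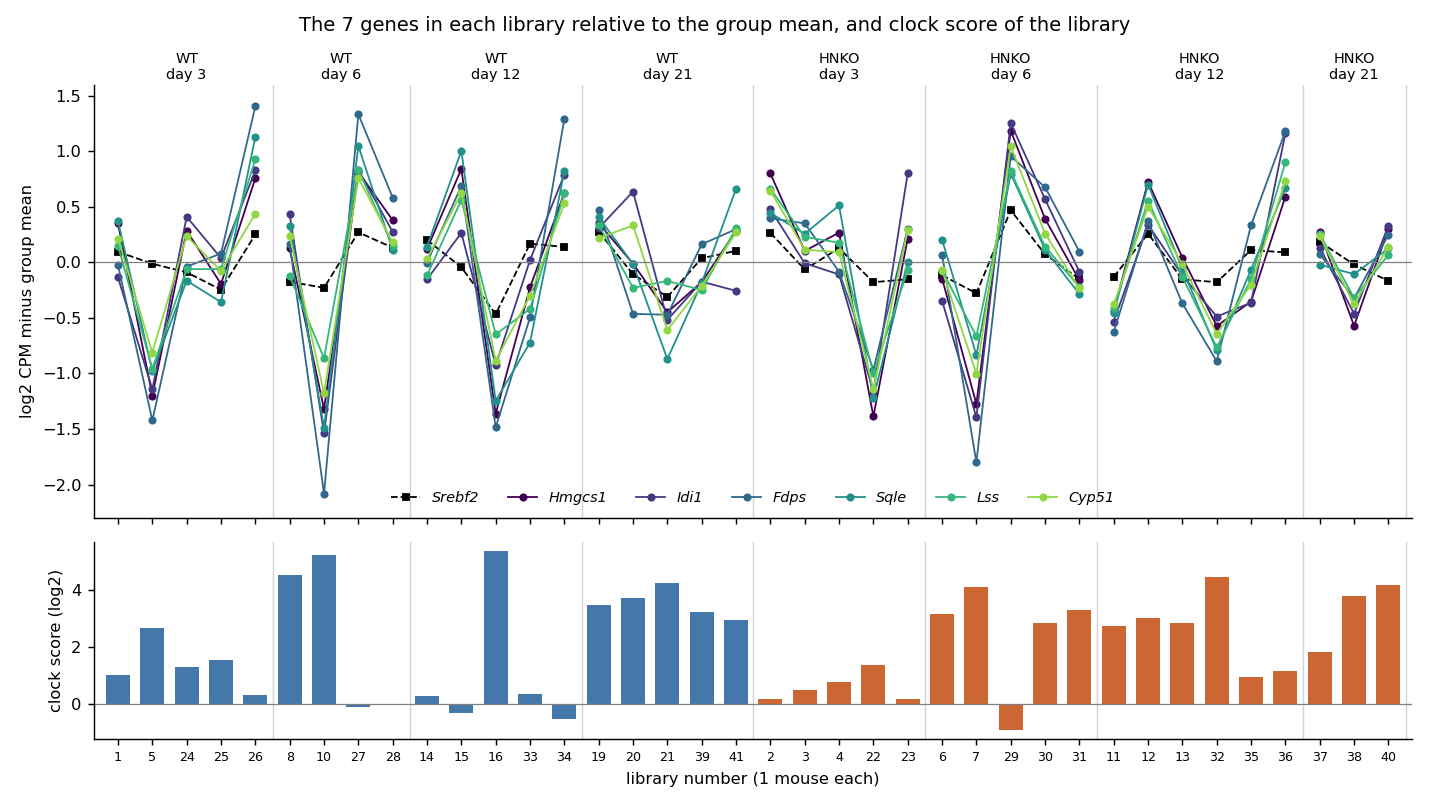
Level of each of the 7 genes in each library relative to the mean of its genotype and day (log2 CPM), with the clock score of the same library (log2 units, bars) in the lower panel. The libraries lowest in the enzymes of their groups at days 3, 6 and 12 in WT, 5, 10 and 16, have scores of 2.65, 5.23 and 5.37.

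The clock score was not balanced between the groups. At day 12 its median was 0.27 in WT and 2.77 in HNKO, with 4 of the 5 WT mice between -0.53 and 0.34, and WT library 16 at 5.37. At day 21 the medians were 3.46 in WT and 3.78 in HNKO, and at days 3 and 6 they were 1.30 and 2.25 in WT and 0.49 and 3.14 in HNKO. When the score was added to the fit as a covariate, 5 of the 7 genes were called higher in HNKO at day 12, with 19% of all genes called in that fit. The log2 fold changes were 0.96 for Idi1 (SE 0.33, adjusted p 0.0409), 0.85 for Hmgcs1 (SE 0.30, adjusted p 0.0435), 0.82 for Cyp51 (SE 0.25, adjusted p 0.0196), 0.71 for Lss (SE 0.24, adjusted p 0.0348) and 0.29 for Srebf2 (SE 0.09, adjusted p 0.0233). Fdps had 0.87 (adjusted p 0.0773) and Sqle 0.74 (adjusted p 0.108), and 0 of the 7 were called at days 3, 6 and 21, where that fit called 5.02%, 16.3% and 4.94% of all genes.

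For the mean over the 4 days with the score in the fit, 4 of the 7 were called higher in HNKO, against 40.2% of all genes. These were Idi1 (0.54, adjusted p 0.0128), Hmgcs1 (0.41, adjusted p 0.0305), Cyp51 (0.41, adjusted p 0.0105) and Srebf2 (0.16, adjusted p 0.00918), whereas Sqle had 0.40 (adjusted p 0.0545), Fdps 0.24 and Lss 0.23. With the score, the fold change of the mean moved from 0.50 to 0.54 for Idi1, from 0.14 to 0.16 for Srebf2, from 0.29 to 0.40 for Sqle and from 0.08 to 0.24 for Fdps. The score is itself measured from these libraries, and Hlf, which is part of it, was lower in HNKO (-0.51 for the mean over the days, adjusted p 0.00232). The test of an interaction with the score in the fit gave unadjusted p from 0.14 to 0.415 for the 7 genes. In WT, the rise of Srebf2 from day 3 to day 21 was 0.80 with the score in the fit (SE 0.10, adjusted p 4.34e-06), and the enzymes had values from 0.39 to 1.04, of which 0 of 6 were called, against 12.9% of all genes.

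**Figure D4:**
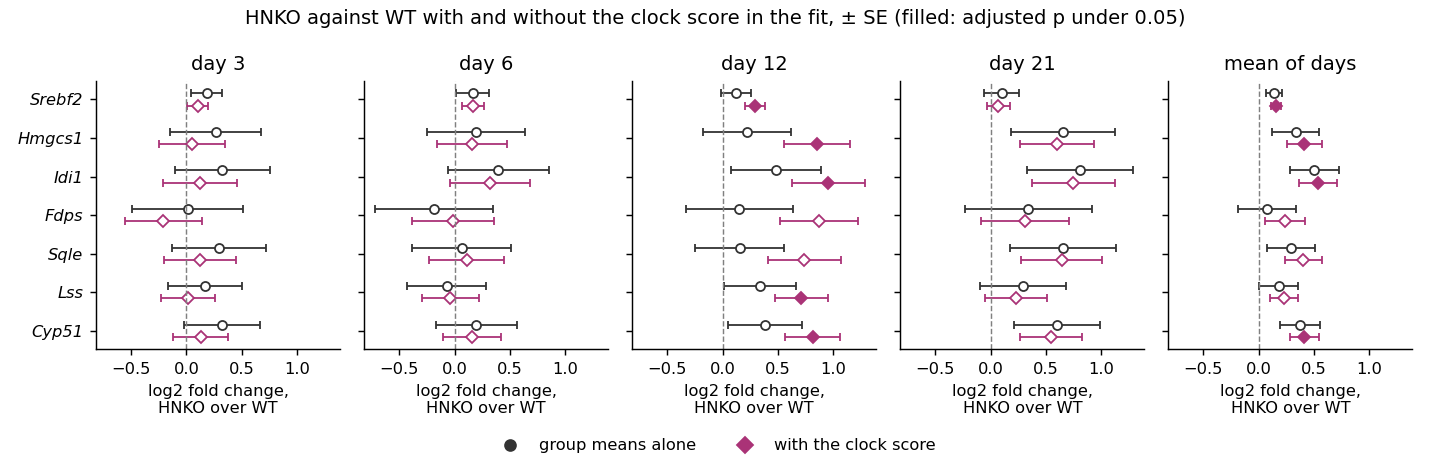
Log2 fold change of HNKO over WT for the 7 genes at each day and for the mean over the days, with and without the clock score as a covariate, ± SE, with filled points where the adjusted p was under 0.05. With the score, Idi1 at day 12 moves from 0.48 to 0.96 and Hmgcs1 from 0.22 to 0.85.

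Of 14 further enzymes of the pathway, 1 was higher and 3 were lower in HNKO for the mean over the 4 days, with a median log2 fold change of 0.06. In this comparison 19.2% of all genes tested were called higher and 17.3% lower, or 36.4% in all, and each list of other genes is read against these shares for the mean over the days. Mvk, the mevalonate kinase, rose by 0.38 (SE 0.11, adjusted p 0.00523). Ebp, a sterol isomerase late in the pathway, fell by 0.28 (SE 0.06, adjusted p 0.000739), and Tm7sf2, a sterol reductase, fell by 0.27 (SE 0.11, adjusted p 0.0445). Sc5d, a late desaturase that was named after its value was seen, fell by 0.38 (SE 0.13, adjusted p 0.0184). At single days only Ebp was called, at day 6 (-0.44, adjusted p 0.0228). With the clock score in the fit, 3 of the 14 were called higher at day 12, where the median was 0.33 against 0.10 without it and 19% of all genes were called, and for the mean over the days 2 were higher and 3 lower.

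**Figure D5:**
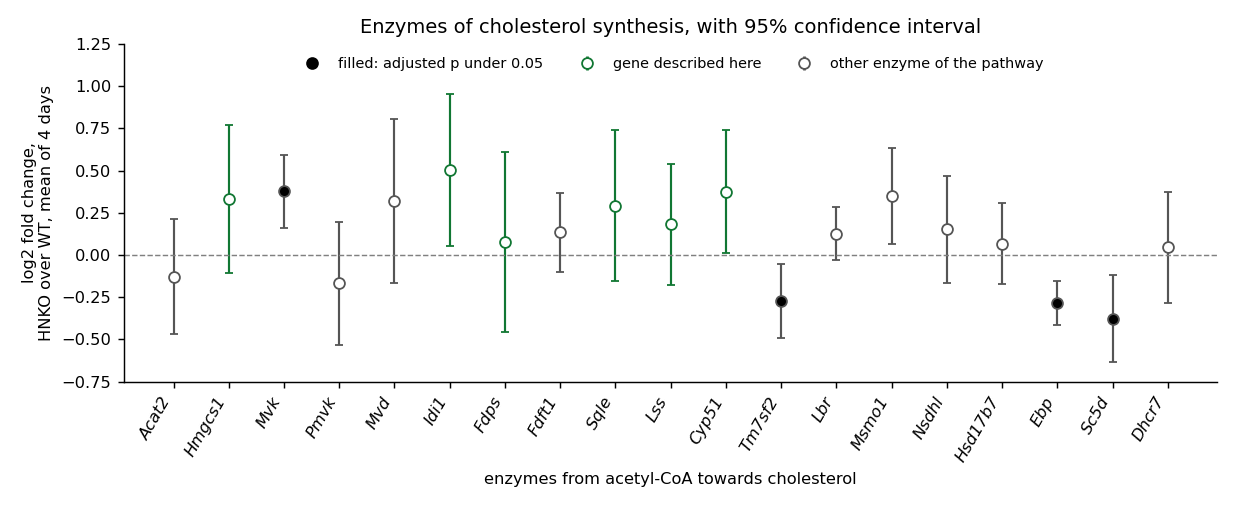
Log2 fold change of HNKO over WT, mean over the 4 days, for enzymes of cholesterol synthesis in the order of the pathway, with 95% confidence intervals and filled points where the adjusted p was under 0.05. Mvk lies at 0.38 and Ebp at -0.28, and the values of the 6 enzymes described in full run from 0.08 to 0.50.

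Among Srebf1 and 5 genes that act on SREBP proteins, 1 of 6 was called lower for the mean over the 4 days and none higher, beside 17.3% and 19.2% of all genes. Scap, the sterol sensor that carries SREBP2 to the Golgi, fell by 0.50 (SE 0.10, adjusted p 0.000114) and had -0.57 at day 6 (adjusted p 0.0475). Insig1, which holds SCAP in the endoplasmic reticulum and is itself an SREBP target, had -0.32 (SE 0.15, adjusted p 0.0936), and Insig2 had -0.21 (SE 0.23). Mbtps2, which encodes a protease of SREBP, had 0.01 (SE 0.06). Of 6 other SREBP2 targets, Stard4, a carrier of cholesterol, fell by 0.23 (SE 0.09, adjusted p 0.0335), and Acss2, which makes acetyl-CoA from acetate, had -0.68 (SE 0.29, adjusted p 0.0655). The median of these 6 was -0.18, and that of the 7 genes described in full was 0.29.

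In genes of cholesterol export, the target pathway of the oxysterol receptors LXR, 1 of 8 was higher and 4 were lower, beside 19.2% and 17.3% of all genes. Abcg8, a subunit of the exporter of sterols into bile, fell by 0.69 (SE 0.12, adjusted p 2.87e-05), and its partner Abcg5, named after its value was seen, fell by 0.43 (SE 0.12, adjusted p 0.0047). Abcg1, an exporter that is strong in macrophages, rose by 0.29 (SE 0.05, adjusted p 6.94e-05), beside a macrophage marker sum with a median of 463 CPM in HNKO and 425 CPM in WT and 3 of 5 macrophage markers called higher. Nr1h3, which encodes LXR alpha, fell by 0.14 (SE 0.05, adjusted p 0.0296). The part of the cell mixture in these values was not tested.

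Of 5 genes for cholesterol esters, 1 was higher and 3 were lower, and for this and the 3 lists after it the shares of all genes were again 19.2% and 17.3%. Soat1, an acyltransferase found in many cell types, rose by 0.44 (SE 0.08, adjusted p 2.67e-05), while Soat2, the form of hepatocytes, fell by 0.23 (SE 0.06, adjusted p 0.00187). Nceh1, a hydrolase of cholesterol esters, fell by 0.50 (SE 0.09, adjusted p 6.34e-05), and 1 further gene of the 5 was lower, Lcat, named after its value was seen. Of 8 genes of the branches that lead to prenyl groups, dolichol and ubiquinone, 1 was higher and 2 were lower, among them Fnta, a subunit of farnesyltransferase (-0.15, adjusted p 0.00477), and Nus1, a subunit for dolichol synthesis (-0.18, adjusted p 0.0144). Of 7 genes of fatty acid synthesis, targets of the related factor SREBP1c, 1 was lower, the malic enzyme gene Me1 (-1.04, SE 0.29, adjusted p 0.0054), and all 7 had a value below 0 with a median of -0.48. With the clock score in the fit, which called 40.2% of all genes, 1 of the 7 was lower and the median was -0.29. Of the 12 clock genes, 2 were lower, Cry1 (-0.50, adjusted p 0.000883) and Hlf, and none was higher.

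In WT from day 3 to day 21, where 4.95% of all genes were called, Stard4 rose with Srebf2, by 0.58 (SE 0.17, adjusted p 0.0344), as 1 of the 6 other targets. Ebp fell by 0.49 (SE 0.12, adjusted p 0.0145), as 1 of the 14 further enzymes, and Nr1h3 fell by 0.37 (SE 0.10, adjusted p 0.0212), as 1 of 8 genes of LXR and export. No gene of SREBP processing, of cholesterol esters, of the branch pathways or of fatty acid synthesis was called in this comparison. With the clock score in the fit, which called 12.9% of all genes here, 2 of the 7 genes of fatty acid synthesis were higher (median 1.38, against 0.54 without it), 1 of the 5 ester genes was lower, and of the 14 further enzymes 2 were higher and 1 was lower.

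The genes most like the 6 enzymes across the 38 libraries were found from r of each gene's deviation from its group mean with the mean of the standardised enzyme deviations. Among the 10 highest were Nsdhl (0.94), Acat2 (0.94), Mvd (0.92), Rdh11 (0.91), Dhcr7 (0.89), Sytl5 (0.89), Sgsm1 (0.88), Aqp8 (0.85) and 9330182L06Rik (0.85). Nsdhl, Acat2, Mvd and Dhcr7 are enzymes of the same pathway, and Aqp8 is a water channel of the hepatocyte. Of these 10 genes, 6 were also among the 10 highest in the 19 WT libraries alone. Of the 14 further enzymes, 12 had r from 0.61 to 0.94, whereas Ebp had 0.14. Srebf2 had r = 0.70, Insig1 0.80 and Insig2 0.74, Scap 0.40 and Abcg5 -0.72. All values are descriptions over these libraries, which differed in depth and clock score.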

How the data were processed

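Whole-liver RNA of HNKO and WT mice was depleted of ribosomal RNA and sequenced as stranded paired-end libraries. The authors aligned reads with STAR (2.7.2b) to GRCm38 and deposited raw counts per gene from featureCounts (1.6.4); use of strand was not given in the sources used here. Symbols were matched for 55394 of 55487 IDs, and 16022 genes had 0 counts. From the counts, edgeR (4.0.16, R 4.3.3) removed 35190 genes (filterByExpr, minimum count 10, minimum total 15), which left 99.937% of counts and 20297 genes. TMM factors and a quasi-likelihood fit over the 8 groups of genotype and day were used, p-values were adjusted over all genes tested by Benjamini-Hochberg, and 0.05 was the threshold. Log2 CPM used a prior count of 2. The precision rests on the number of mice and their spread. Each p-value of the fits sets a difference between groups against the spread between these libraries.

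Named genes were the 7 members in full, up to 4 genes of each other list (the smallest p for HNKO against WT over all days and for change across days in WT) and the 10 genes most like the enzymes. The members and lists were chosen with earlier results of these data known. Alternatives were DESeq2 (1.42.0), RLE factors, other filters, all 40 libraries, only the compared groups, the edgeR 4 and robust computations, covariates for the range of library numbers or the clock score, and leaving out each library. The fits were also run on simulated counts with planted changes larger than those of the 7 members. That run does not tell whether changes of the size seen here would be found. Some genes of the pathway are not reported here.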

Additional observations from a re-analysis of the deposited data

How the results depend on the processing

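Under the 10 alternatives, and when each library of the 2 groups compared was left out in turn (10, 9 and 8 fits), no gene of the 7 was called between HNKO and WT at days 3, 6 and 21, and in the same kinds of fit Srebf2 remained called in WT from day 3 to day 21. No gene of the 7 was called by the interaction in its 38 fits without 1 library and 9 alternatives. With the clock score in the fit, 5 of the 7 were called at day 12, 4 for the mean over the days and 1 (Srebf2, 0.32, adjusted p 0.0469) in WT from day 12 to day 21, where 6.77% of all genes were called and the median of the enzymes moved to 0.60. Without single libraries, 0 to 1 were called for the mean and 0 to 1 for WT day 12 against day 6, where the other alternatives gave 1 in 7 of 10 fits (RLE factors, DESeq2, the stricter filter, edgeR 4, robust, number range and clock score). For day 21, including libraries 17 and 18 gave 0.43 for Idi1 and 0.38 for Hmgcs1, and the cause was not tested.

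Some values that were not called changed sign. With all 40 libraries, Fdps was -0.0024 at day 21 and -0.010 for the mean; with the number range it was -0.093 at day 21, and with the clock score -0.21 at day 3. Srebf2 in WT from day 3 to day 6 was -0.0021 with RLE factors, -0.0022 with DESeq2, -0.0061 with no filter and -0.0036 with at least 10 counts in every library. In WT from day 3 to day 21, Lss was -0.0058 with RLE and -0.0051 with DESeq2; Idi1 was 0.0029 with the stricter filter, 0.00098 with only the compared groups and 0.21 with the number range. With the clock score in that comparison, Hmgcs1 was 0.53, Sqle 0.59, Idi1 0.68 and Cyp51 0.39.

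Leaving out single libraries gave ranges that crossed 0. At day 3 they were -0.22 to 0.52 for Fdps and -0.018 to 0.47 for Lss. At day 6 they were -0.18 to 0.48 for Hmgcs1, -0.24 to 0.47 for Sqle, -0.012 to 0.67 for Idi1, -0.53 to 0.31 for Fdps, -0.31 to 0.27 for Lss and -0.13 to 0.47 for Cyp51, with the ends set by HNKO library 29 and WT libraries 10 and 27. At day 12 they were -0.055 to 0.44 for Sqle (WT libraries 16 and 15) and -0.17 to 0.57 for Fdps (HNKO 36 and WT 34), and for the mean -0.0081 to 0.21 for Fdps. The other ranges between HNKO and WT lay above 0, the lowest end being 0.0050 for Hmgcs1 at day 12 (without WT 16). In WT they were -0.093 to 0.076 for Srebf2 from day 3 to day 6 and -0.060 to 0.12 from day 12 to day 21. From day 3 to day 21 they were -0.31 to 0.27 for Sqle, -0.20 to 0.24 for Idi1, -0.18 to 0.56 for Fdps and -0.17 to 0.30 for Lss. None of these values was called.

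Counts over all genes varied by more than 1.5 times. At day 3, 945 genes were called, against 1428 with DESeq2, 331 with all 40 libraries and 420 with only the compared groups; at day 6, 2596 against 1321 and 1325 in the last 2 settings. At day 12, 1588 were called, against 624, 867 and, with the clock score, 3847; at day 21, 634 against 994 with DESeq2, 1350 with all 40 libraries and 1002 with the clock score. The interaction gave 0 and, with DESeq2, 12. Change across days in WT gave 1185, against 1856 with DESeq2, 581 with all 40 libraries, 2224 with the number range and 3163 with the clock score. Day 6 against day 3 gave 0 and, with DESeq2, 5; day 12 against day 6 gave 454, against 717 with DESeq2, 270 with all 40 libraries and 213 with only the compared groups. Day 21 against day 12 gave 1, against 2 (RLE), 92 (DESeq2), 5 (stricter filter), 0 (compared groups), 10 (edgeR 4), 241 (number range) and 1374 (clock score); day 21 against day 3 gave 1005, against 597 with no filter, 480, 2002 and 2617 with all 40 libraries, number range and clock score. Leaving out single libraries gave 322 (without HNKO 23) to 1668 (without HNKO 22) genes at day 3, 1126 (without HNKO 29) to 3027 at day 6, 852 (without WT 15) to 1750 at day 12, 13 (without HNKO 37) to 718 at day 21, 271 (without WT 8) to 525 for WT day 12 against day 6, 1 to 70 (without WT 16) for day 21 against day 12 and 546 (without WT 39) to 974 for day 21 against day 3. Among the genes most like the enzymes, 6 of 10 were shared with the WT libraries alone. No paired analysis was possible because each library has a number of its own. The spread of the enzymes between mice limits the days: with 3 HNKO mice at day 21, the SE of Idi1 was 0.48.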
